A study of Mus musculus with 18 samples.

Results

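The genes described here are the nuclear-encoded subunits of mitochondrial complex I, chosen by their symbols: every row whose symbol reads Nduf, then a, b, c, s or v, then a number and an optional suffix, in all 4 deposited expression tables. The rule found 41 of the 32941 genes per table. It leaves out the assembly factors (Ndufaf genes), the acyl carrier protein gene Ndufab1 and the subunits encoded by mitochondrial DNA, which are given below only as the rest of the pathway. They comprise the Ndufa, Ndufb, Ndufc, Ndufs and Ndufv families, with the paralog Ndufa4l2 and the copies Ndufb4c, Ndufb11b and Ndufs6b.

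RNA sequencing was done on 18 mouse libraries in a study of peroxisomal ether lipids and mitochondrial energy metabolism in the developing cortex. Overexpression of PLAAT3, a phospholipase and acyltransferase, together with PEX11, a peroxisome division factor, was compared with wild type in a first brain set (PLA1 against Ctrl1) and in a brain set named for neurons (Neuron-PLA against Neuron-ctrl). Primary neural stem cells with a short hairpin RNA against Pex7, the import receptor for an ether lipid enzyme, were compared with a scrambled control (NSC-Pex7sh against NSC-Scramble). These 3 comparisons had 2 libraries per group, and wild-type brain at embryonic days 11, 12, 13, 14, 16 and 18 had 1 library per stage. The labels give wild type as the genotype of the Ctrl1, Neuron-ctrl, NSC-Scramble and stage libraries. For the overexpression sets they name no age, vector, promoter or carrier cells, and no way in which neurons were isolated. The design text speaks of cortex and of triplicates, while the labels give brain as the tissue. Whether the 2 libraries of a group came from different animals or cultures is not labelled, and the p-values then cover a spread that could be technical.

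Values were RPKM, reads per kilobase of exon scaled to the library's read total. A perturbation library held 16147911 to 28104927 reads and a stage library 41501880 to 54373317. Overexpressed Plaat3 stood out in its own libraries. It had 31.4 and 29.1 RPKM in PLA1 against 0.413 and 0.431 in Ctrl1, and 19 and 20.8 RPKM in Neuron-PLA against 0.0699 and 0.23 in Neuron-ctrl. Pex7 had 0.5 and 0.669 RPKM in NSC-Pex7sh against 1.19 and 1.22 in NSC-Scramble. Markers went with the labels only in part: the 10 radial glia and stem cell markers summed to 828 to 1165 RPKM in the stem cell libraries and were all detected, but the 8 neuron markers summed to 729 to 964 RPKM there.

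Complex I is the entry point of the respiratory chain. It takes electrons from NADH, passes them along iron-sulfur clusters to ubiquinone and pumps protons across the inner mitochondrial membrane. The enzyme is L-shaped: the N module at the tip of the matrix arm oxidises NADH, the Q module below it reduces ubiquinone, and the membrane arm pumps protons. The mitochondrially encoded ND subunits form the core of the membrane arm, a set of conserved nuclear subunits forms the core of the matrix arm, and many small nuclear-encoded accessory subunits surround both. Neurons depend on this pathway for most of their ATP, and loss of single subunits such as NDUFS4 causes encephalopathy in mice and in patients.

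By these roles 8 members were listed under the N module (Ndufv1, Ndufv2, Ndufv3, Ndufs1, Ndufs4, Ndufs6, Ndufa2, Ndufa12) and 5 under the Q module (among them Ndufs3, Ndufs7, Ndufs8 and Ndufa5). Another 12 form a mixed group of proximal membrane arm and other accessory subunits, not all of that arm (Ndufa1, Ndufa3, Ndufa6 to Ndufa11, Ndufa13, Ndufc1, Ndufc2, Ndufs5). The Ndufb subunits of the distal membrane arm are 11. Ndufa4, whose protein is now counted with cytochrome c oxidase rather than complex I, and its paralog Ndufa4l2 form a pair of their own. The last 3 are copies by name: GENCODE M21 annotates Ndufb4c and Ndufs6b as processed pseudogenes and gives Ndufb11b a single exon. The Ndufb1 identifier of the files is annotated there as a noncoding transcript at a bidirectional promoter, so its values may not stand for the subunit's mRNA.

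Genes of oxidative phosphorylation are known for promoters that hold sites of NRF1, of the ETS factor GABPA and of YY1. RefSeq start regions on GRCm38.p6, from 250 bases before to 50 bases after the transcript start, were given for 33 members in 35 windows. They were searched on both strands for GCATGCG (NRF1 core), CCGGAAG (GABPA core) and AAGATGG (YY1 core). The YY1 core was found in 7 of 35 member windows (20%), against 6.34% of 32851 windows of all genes. The NRF1 core was found in 3 (8.57%), against 3.58%, and the GABPA core in 4 (11.4%), against 8.86%. A match is a description of letters, not a site of binding.

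All 7 YY1 cores lay on the sense strand within the first 50 transcribed bases, where 1.3% of all windows held 1. In all 7 the ATG inside the core was an annotated start codon in GENCODE M21, so the motif spans the beginning of the reading frame. They are shown because, of the 3 cores searched, this is the one most member windows held. Each line gives 30 bases, 5′ to 3′, with the core in capitals. The places are chr7:3617384-3617413 (plus strand) for Ndufa3, chr6:126849097-126849126 (minus) for Ndufa9, chr19:44555393-44555422 (minus) for Ndufb8, chr3:51408915-51408944 (minus) for Ndufc1, chr13:114388045-114388074 (minus) for Ndufs4, chr13:73328433-73328462 (minus) for Ndufs6 and chr10:80249462-80249491 (plus) for Ndufs7.
Ndufa3: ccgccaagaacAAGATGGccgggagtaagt
Ndufa9: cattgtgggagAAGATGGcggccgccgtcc
Ndufb8: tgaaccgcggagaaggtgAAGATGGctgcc
Ndufc1: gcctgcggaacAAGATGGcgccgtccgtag
Ndufs4: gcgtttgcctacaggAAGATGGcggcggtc
Ndufs6: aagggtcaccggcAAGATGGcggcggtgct
Ndufs7: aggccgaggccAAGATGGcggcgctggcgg

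The NRF1 core is a near-palindrome, and in Ndufa11 and Ndufa8 it matched on both strands with an offset of 1 base. The 3 windows that held it are shown in the same way, with the matched letters in capitals: chr17:56717692-56717721 (plus) for Ndufa11, chr15:82354356-82354385 (minus) for Ndufa6 and chr2:36049329-36049358 (minus) for Ndufa8.
Ndufa11: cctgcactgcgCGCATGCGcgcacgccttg
Ndufa6: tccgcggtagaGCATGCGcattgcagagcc
Ndufa8: gtcgctggagaCGCATGCGcagatggtacc

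Upstream sequence is also shown for the tested members that fell and rose most in PLA1 by change in log2(RPKM + 1). These are Ndufa4 (chr6:11907498-11907647, minus strand, 150 bases) and Ndufa10 (chr1:92473861-92474008, minus strand, 148 bases). Both end where the GENCODE gene begins and hold none of the 3 cores, so no letters are in capitals.
Ndufa4: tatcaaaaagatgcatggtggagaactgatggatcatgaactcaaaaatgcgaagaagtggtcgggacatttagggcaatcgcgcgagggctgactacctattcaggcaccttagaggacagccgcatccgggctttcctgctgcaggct
Ndufa10: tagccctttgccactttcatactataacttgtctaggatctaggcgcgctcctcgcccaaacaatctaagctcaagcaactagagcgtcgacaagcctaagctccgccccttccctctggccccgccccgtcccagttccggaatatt

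Most members were well expressed in every library. Of the 41, 1 to 5 had under 1 RPKM in a library, and the median member lay at 32.7 to 47.4 RPKM in the stages, 24.8 to 27.4 in the stem cells and 11.7 to 26.4 in the overexpression sets. In the stage libraries Ndufc2, a small membrane arm subunit, had the highest mean (129 RPKM, SD 9.44 over 6 stages). Ndufa2 of the N module (101, SD 29.3) and Ndufa4 (100, SD 21.4) followed, and neither differs from the other beyond this spread. Ndufa4l2, a paralog known to be induced by hypoxia, averaged 2.96 RPKM (SD 0.725) and stayed at or under 3.78 in all 18 libraries. Ndufb11b had 1 read in 1 stem cell library and 0 in the other 17 libraries.

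**Figure D1:**
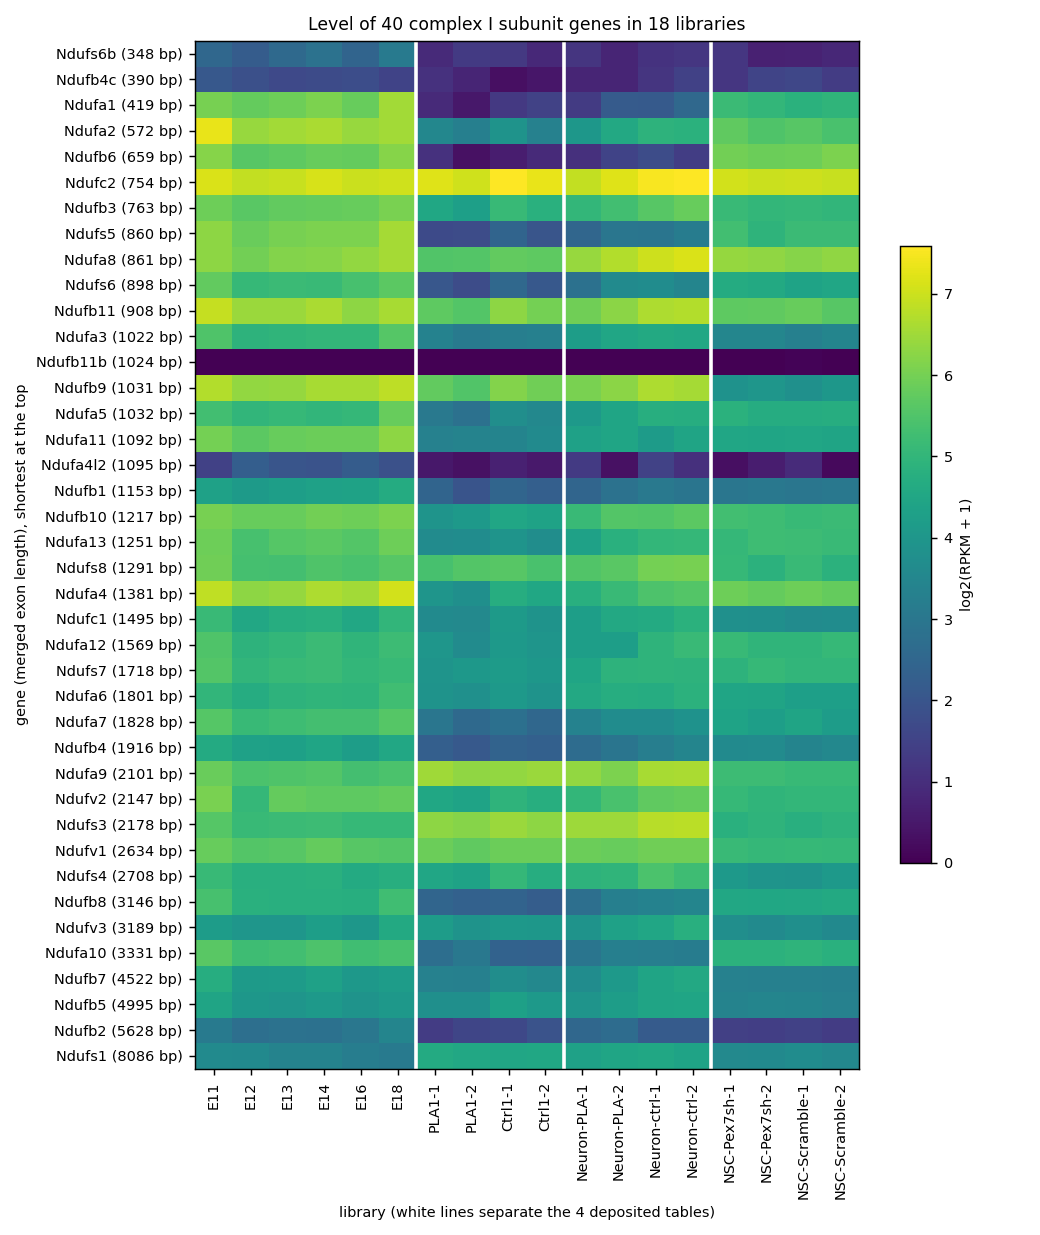
Level of 40 of the 41 genes (rows, shortest merged exon length at the top) in each of the 18 libraries (columns) as log2(RPKM + 1), with white lines between the 4 tables. Ndufc2 is bright in every library, Ndufb11b is at or near 0 throughout, and Ndufa1 and Ndufb6 are dark only in the 8 overexpression-set libraries.

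The subunit genes are short. Merged exon length ran from 348 bp (Ndufs6b), 390 bp (Ndufb4c) and 419 bp (Ndufa1) to 4995 bp (Ndufb5), 5628 bp (Ndufb2) and 8086 bp (Ndufs1, the longest core subunit). The median over members tested lay at 1336 to 1495 bp across the comparisons, against 4218 to 4486 bp for all genes tested. Merged exons also overstate the mRNA of several members. Ndufb7 has 4522 bp of merged exon but 623 bp in the transcript with its longest coding sequence, a ratio of 7.26. Scaled to that transcript its mean stage level was 134 per kilobase instead of 18.5 RPKM, and it moved to rank 6 among members instead of rank 33. Ndufb8 moved likewise to 142 instead of 30.7 and Ndufb5 to 73.7 instead of 15.9, so the order of levels among members depends on which length is used. The length classes and length trends below use merged exon length, so such members can be set there beside genes of longer mRNA.

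Reads of some members can also belong to other genes. Exons of 17 members overlap another annotated gene, mostly on the opposite strand (Ndufb6 shares 257 of its 659 bp with Smim27), and whether the counting used strand is not given in the sources used here. A copy of at least 100 bases with at least 95% identity elsewhere in the annotated transcripts was found for 15 members, among them Ndufa12 (402 bases at 99.55% in Gm15920), Ndufs3 (792 bases at 100% in Gm12251) and Ndufb4 (390 bases at 100% in Ndufb4c). How reads in such stretches were assigned is not given, so the split between a member and its copy is uncertain.

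In PLA1 the subunit genes were mostly lower than in Ctrl1, and the distal membrane arm held 5 of the 11 that passed as lower. Of the 37 members tested, 11 were lower and 1 was higher at an adjusted p under 0.05 (limma on log2(RPKM + 1), Benjamini-Hochberg over all 11623 genes tested). Of all genes 29.6% were called, 13.2% as lower and 16.3% as higher, so 29.7% of members were lower where the background was 13.2%, and 2.7% were higher where it was 16.3%. A log2 change below 0 was seen in 30 of 37 members, against 44.1% of all genes, and the median change was -0.20 (SD 0.263 over members), against 0.06 over all genes. Both PLA1 libraries lay below both Ctrl1 libraries in 23 of 37 members (29.7% of all genes) and above both in 2 (39.6% of all genes). With upper-quartile scaling 14 members were lower and 0 higher, against 17% and 11.4% of all genes. Ndufa4l2, Ndufb4c, Ndufb6 and Ndufb11b were under a mean of 1 RPKM in this table and were not tested.

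Ndufa4, on the minus strand at chr6:11900292-11907497 (mm10, GENCODE M21), changed most in log2(RPKM + 1) among the members tested. It had 14.4 and 12.8 RPKM in PLA1, against 25.6 and 21.9 in Ctrl1. The groups did not overlap, and the PLA1 mean was 0.574 of the Ctrl1 mean (log2 change -0.76, SE 0.11, adjusted p = 0.00387 in limma). The ratio of means was lower for Ndufa1 (0.4), which averaged 0.643 RPKM in PLA1 and was not called. Ndufa5, an accessory subunit of the Q module (chr6:24518666-24528013), had 7.44 and 6.1 RPKM in PLA1, against 12.5 and 10.7 in Ctrl1, again without overlap (log2 change -0.70, SE 0.14, limma adjusted p = 0.0102). Ndufb3, a small subunit of the distal arm (chr1:58586384-58595964), had 21.8 and 18.5 RPKM in PLA1, against 33.8 and 27.4 in Ctrl1 (log2 change -0.58, SE 0.13, limma adjusted p = 0.0163). Every PLA1 library lay below both Ctrl1 libraries. Ndufb11, an X-linked subunit of the same arm (chrX:20615326-20617619), had 51.4 and 45.6 RPKM in PLA1, against 78 and 62.7 in Ctrl1, and the Ctrl1 libraries were further apart than the PLA1 libraries (log2 change -0.52, SE 0.12, limma adjusted p = 0.017).

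The exception was Ndufa10, a matrix-facing accessory subunit related to nucleoside kinases (chr1:92439010-92473860). It had 5.65 and 7.2 RPKM in PLA1, against 4.18 and 4.15 in Ctrl1, so both PLA1 libraries were higher and also further apart (log2 change 0.51, SE 0.15, limma adjusted p = 0.0383). Its call was lost with upper-quartile scaling (adjusted p = 0.0581), with no filter on low values (0.129) and without any of 3 single libraries: PLA1-2 (0.127), Ctrl1-1 (0.144) or Ctrl1-2 (0.119).

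**Figure D2:**
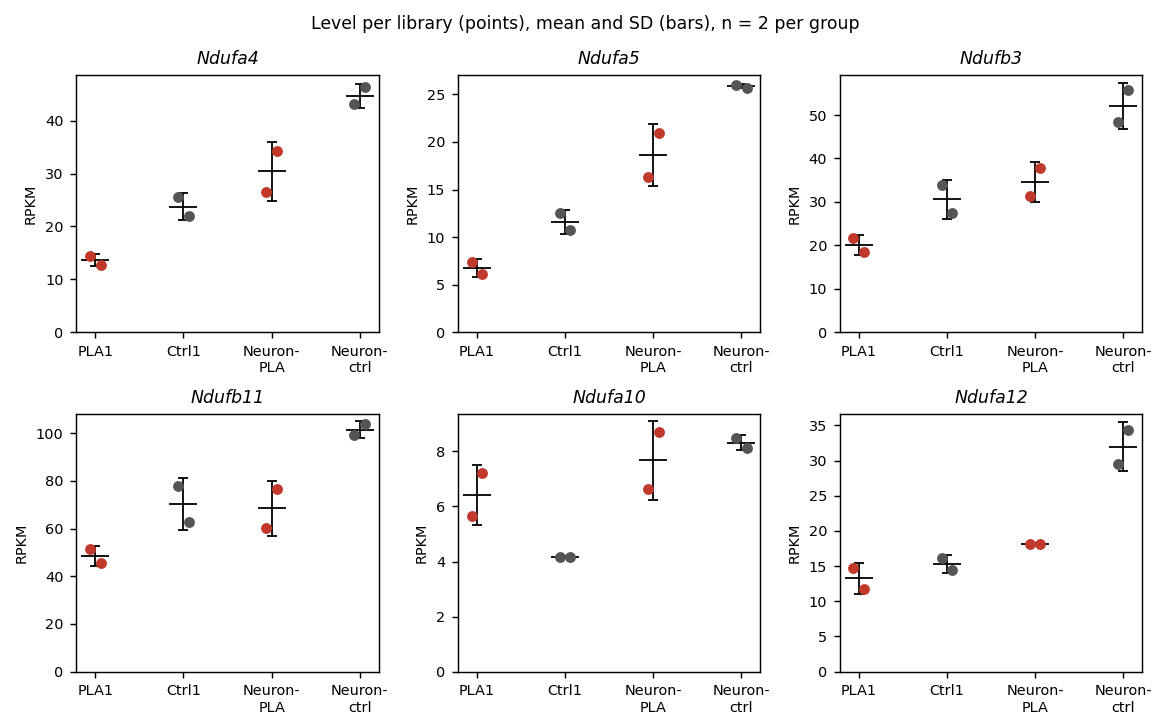
RPKM of 6 subunit genes in each library of the 2 overexpression sets (points), with the group mean and SD (black, n = 2 per group). Ndufa4, Ndufa5, Ndufb3 and Ndufb11 lie lower in PLA1 than in Ctrl1 and lower in Neuron-PLA than in Neuron-ctrl, Ndufa10 lies higher in PLA1, and Ndufa12 lies lower in Neuron-PLA.

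By role, and beside 13.2% of all genes called lower, 5 of the 10 distal arm subunits tested were called lower in PLA1 and none higher (median -0.36). Besides Ndufb3 and Ndufb11 these were Ndufb5 (-0.44), Ndufb10 (-0.43) and Ndufb9 (-0.40). In the N module 2 of 8 were lower (median -0.21): Ndufv2 (-0.39), a core iron-sulfur subunit, and Ndufs4 (-0.44), an accessory subunit at the base of the module. In the Q module Ndufa5 was the only call, and the core subunits Ndufs3, Ndufs7 and Ndufs8 had changes between -0.12 and -0.03. Of the 12 proximal and other accessory subunits 2 were lower, Ndufc1 (-0.41) and Ndufc2 (-0.33), and Ndufa10 was higher (median -0.15). The longest core subunits showed little change: Ndufs1 stood at 0.09 (SE 0.09) and Ndufv1, which binds NADH, at -0.07 (SE 0.08).

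The change in PLA1 followed exon length, among members and among all genes. Genes with over 500 to 1000 bp of exon had a median log2 change of -0.20 over all 318 genes tested and -0.41 over 7 members. Over 3000 to 5000 bp the medians were 0.04 over 3219 genes and 0.00 over 5 members, and above 5000 bp they were 0.14 over 4950 genes and -0.12 over 2 members. Genes of up to 500 bp broke the order, with a median of 0.35 over 278 genes. Across genes, which are not independent replicates and share the same 4 libraries, Spearman's rho of length with change was 0.38 over the members and 0.19 over all genes. In 29 of 37 members the change was below the median of all genes in the same length class.

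With each library's trend on exon length removed before the fit, the median of members became -0.07 and 7 were called lower, against 14.5% of all genes. These were Ndufa4 (-0.62, adjusted p = 0.00481), Ndufa5, Ndufb3, Ndufb5, Ndufb11, Ndufs4 and Ndufv2, and Ndufa10 was still higher. The calls of Ndufb9, Ndufb10, Ndufc1 and Ndufc2 were lost. Library Ctrl1-1 weighed most on the count: without it the median was -0.12 and 1 member was called lower (6.08% of all genes), without PLA1-2 there were 3 (8.68%), and without PLA1-1 there were 7 (12.3%).

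**Figure D3:**
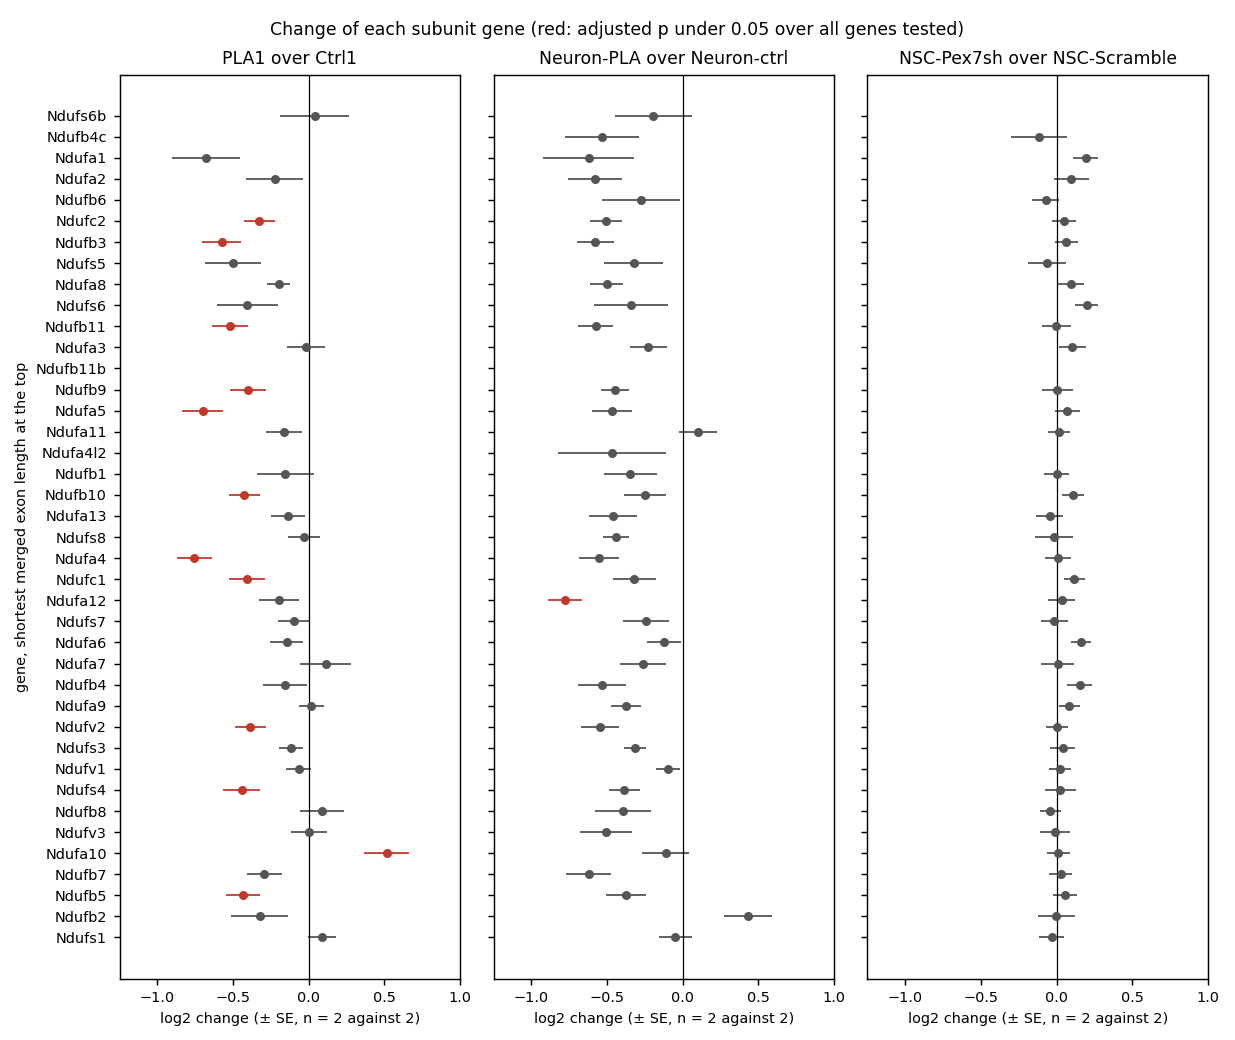
Log2 change (point) and SE (bar) of 40 of the 41 members in the 3 comparisons of 2 libraries against 2, ordered by merged exon length with the shortest at the top. Red points passed an adjusted p of 0.05: 12 in PLA1, 1 in Neuron-PLA and 0 in NSC-Pex7sh. Members under the minimum level have no point.

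In the neuron set nearly all members were lower in Neuron-PLA than in Neuron-ctrl, by amounts that passed the test for Ndufa12 alone. Of 40 members tested 38 had a log2 change below 0, against 49.6% of all 11179 genes. The median was -0.38 (SD 0.222), against 0.00 over all genes. Both Neuron-PLA libraries lay below both Neuron-ctrl libraries in 27 of 40 members (25.3% of all genes) and above both in 1 (24.7%). Of all genes 0.877% were called. Lower were 1 of 40 members (2.5%) and 0.501% of all genes, and higher were 0 members and 0.376% of all genes. The unadjusted p was below 0.05 for 20 members and for 1976 of all genes. On recovered reads limma-voom called 4 members lower (Ndufa12, Ndufb7, Ndufc2 and Ndufv2), against 1.4% of all genes.

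Ndufa12, an accessory subunit added late in assembly where the N and Q modules meet (chr10:94198720-94221443), had 18.2 and 18.1 RPKM in Neuron-PLA, against 29.5 and 34.4 in Neuron-ctrl. The groups were far apart, and the Neuron-PLA libraries nearly equal (log2 change -0.78, SE 0.11, limma adjusted p = 0.0359). In the first set the same gene had 14.8 and 11.7 RPKM in PLA1, against 16.2 and 14.4 in Ctrl1, and there the groups overlapped. Its copy Gm15920 leaves part of these reads uncertain. With the replicate number added to the fit as a block, Ndufa12 was not called in the neuron set. Deviations of same-numbered libraries there correlated at 0.047, and whether the libraries were paired is not labelled. The call was lost with the exon length trend removed (adjusted p = 0.0569), also with GC (0.0614), without the filter on low values (0.247) and without any single library of the set (0.0569 to 0.182).

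Members that did not pass the test in the neuron set still lay apart in the libraries. Ndufa4 had 26.5 and 34.3 RPKM in Neuron-PLA, against 43.1 and 46.3 in Neuron-ctrl (log2 change -0.55, SE 0.13, limma adjusted p = 0.103). Ndufb11 had 60.3 and 76.5 RPKM in Neuron-PLA, against 99 and 104 in Neuron-ctrl (log2 change -0.58, SE 0.12, limma adjusted p = 0.0752). In both genes Neuron-PLA-1 was the lowest library and the groups did not overlap. Ndufb2, a distal arm subunit, lay the other way, with 4.84 and 5.45 RPKM in Neuron-PLA, against 3.54 and 3.57 in Neuron-ctrl (log2 change 0.43, SE 0.16, limma adjusted p = 0.228). Ndufa11 was the other member above 0 (log2 change 0.10, SE 0.13).

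By role the medians in the neuron set were -0.45 in the N module (8 of 8 below 0), -0.32 in the Q module (5 of 5), -0.32 in the proximal and other accessory subunits (11 of 12) and -0.40 in the distal arm (10 of 11). Core and accessory subunits both lay below 0: Ndufs8 of the Q module stood at -0.44 (SE 0.08), Ndufs3 at -0.32 (SE 0.07) and Ndufv2 at -0.55 (SE 0.13). Ndufs1 (-0.05, SE 0.11) and Ndufv1 (-0.10, SE 0.08) were nearest to 0 among the core subunits named here.

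Length moved with the change in the neuron set too. Over all genes the median change was -0.27 over 500 to 1000 bp, -0.19 over 1000 to 1500 bp and 0.07 above 5000 bp. Over members the medians were -0.50, -0.44 and 0.19 in the same classes, and -0.40 over the 5 members of more than 3000 and up to 5000 bp, where all genes stood at -0.01. The class of 3000 to 5000 bp includes Ndufb5, Ndufb7 and Ndufb8, whose coding transcripts have 1079, 623 and 680 bp. By that length they would fall in shorter classes, and a comparison by transcript length was not run. In 37 of 40 members the change was below the median of their class of merged exon length. With the length trend removed the median of members was -0.25, 37 of 40 lay below 0 and none was called lower, against 0.304% of all genes.

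The 2 Neuron-PLA libraries differed. The median member stood 0.35 below its own mean over the 4 libraries in Neuron-PLA-1 and 0.03 below in Neuron-PLA-2, against 0.16 and 0.22 above in Neuron-ctrl-1 and Neuron-ctrl-2. All genes with over 500 to 1500 bp of exon deviated by -0.18 in Neuron-PLA-1 and -0.03 in Neuron-PLA-2. Without Neuron-PLA-2 the median of members was -0.53 and 8 were called lower, against 1.08% of all genes, with Ndufc2 (adjusted p = 0.0233) and Ndufb11 (0.0237) first. Without Neuron-PLA-1 it was -0.25 and 0 were called.

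**Figure D4:**
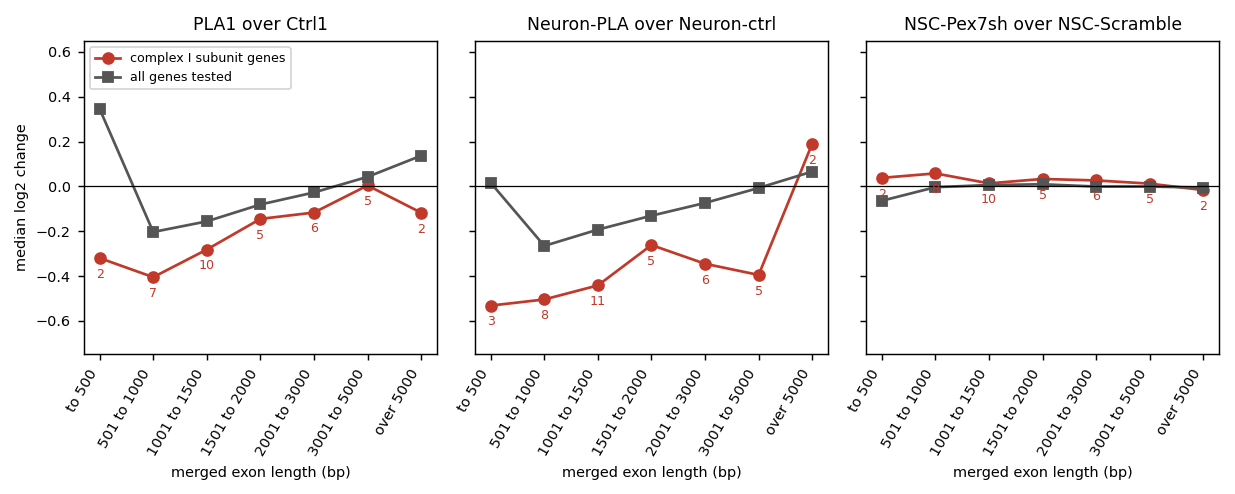
Median log2 change of the subunit genes (red, with the number of members) and of all genes tested (grey) by class of merged exon length, in the 3 comparisons. In both overexpression sets short genes above 500 bp lie lower than long ones, and the members lie below all genes in every class except over 5000 bp in the neuron set. In NSC-Pex7sh both lines stay near 0.

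The overexpression sets were compared directly through the difference of their changes. Of 38 members tested none passed (0 lower, against 6.19% of all 11705 genes, and 0 higher, against 5.48%, 11.7% in either direction). The unadjusted p was below 0.05 for 5 members and for 3224 of all genes. A member called in 1 set and not in the other is therefore not shown to differ between them. The median difference, neuron set minus first set, was -0.15. The members of smallest p were Ndufa12 (-0.58, SE 0.18, limma adjusted p = 0.0711), Ndufb2 (0.75, SE 0.24, adjusted p = 0.0738) and Ndufs8 (-0.41, SE 0.14, adjusted p = 0.0882). Over the alternatives the adjusted p of Ndufa12 ran between 0.0449 (without PLA1-2) and 0.213 (without Ctrl1-2).

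The rest of the respiratory chain was measured in the same fits, from lists of genes written down by function. Among 37 genes for nuclear subunits of the later complexes, II to V, 16 were lower in PLA1, where 13.2% of all genes were, and 0 higher, where 16.3% were (median -0.33), with Cox6b1 (-0.98), Cox7a2l (-0.59) and Cox7a2 (-0.63), subunits or partners of cytochrome c oxidase, of smallest p. In Neuron-PLA 37 of 38 of these genes lay below 0 (median -0.31) and 0 passed. Ndufab1 stood at 0.05 (SE 0.12) in PLA1 and -0.28 (SE 0.14) in Neuron-PLA.

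Mitochondrially encoded subunits of complex I differed between the sets. In PLA1 5 of 7 were lower, where 13.2% of all genes were (median -0.86), and 7 of 7 lay below 0. ND4, a proton-pumping core subunit, had 139 and 123 RPKM in PLA1, against 353 and 329 in Ctrl1 (log2 change -1.37, SE 0.08, limma adjusted p = 0.000136). In the neuron set it had 379 and 366 RPKM in Neuron-PLA, against 408 and 365 in Neuron-ctrl, and there the groups overlapped. ND3 and ND4L averaged under 1 RPKM in the neuron set and were not tested. Of the 5 others ND1 alone was lower there, where 0.501% of all genes were. It had 2188 and 2351 RPKM in Neuron-PLA, against 2976 and 2778 in Neuron-ctrl (log2 change -0.34, SE 0.05, limma adjusted p = 0.0393). The difference between the sets passed the test as higher for 4 of the 7, where 5.48% of all genes did: ND2, ND4, ND5 and ND6.

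Of the factors that assemble complex I, 3 of 18 were lower in PLA1 (Ndufaf5, Tmem126b and Dmac1), where 13.2% of all genes were, and 0 higher, and none of 19 passed in Neuron-PLA. Ndufaf5, which modifies NDUFS7, had 9.42 and 5.7 RPKM in PLA1, against 22.5 and 15.9 in Ctrl1 (log2 change -1.26, SE 0.23, limma adjusted p = 0.00793). Among regulators of mitochondrial biogenesis 2 of 14 were higher in PLA1, where 16.3% of all genes were, and 0 lower: Pprc1 (0.78) and Ppargc1a (0.79), related coactivators. In Neuron-PLA 0 of 13 passed, and in NSC-Pex7sh no gene of any of these lists did.

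Markers of cell types moved in the same libraries, and in bulk RNA fewer cells of a type and less RNA per cell cannot be told apart. Their calls are read beside all genes tested: 13.2% lower and 16.3% higher in PLA1, and 0.501% lower and 0.376% higher in Neuron-PLA. The 8 neuron markers summed to 339 and 324 RPKM in PLA1, against 693 and 669 in Ctrl1, with 6 of 8 lower, and the 8 microglia markers to 187 and 202, against 461 and 430, with 8 of 8 lower. The 8 cycling cell markers summed to 550 and 539 RPKM in PLA1, against 330 and 335 in Ctrl1, and 8 of 8 were higher. The 10 radial glia markers summed to 377 and 376 RPKM in PLA1, against 330 and 313 in Ctrl1, with 5 higher and 1 lower. Interneuron markers summed to 15 and 18.1 RPKM in PLA1, against 34.4 and 34.3 in Ctrl1 (2 of 4 tested lower), and deep-layer neuron markers to 61.1 and 71.7, against 112 and 117 (2 of 4 lower). Upper-layer neuron markers did not fall with them: they summed to 109 and 121 RPKM in PLA1, against 107 and 107 in Ctrl1 (1 of 4 higher, 0 lower). Intermediate progenitor markers summed to 302 and 302 RPKM in PLA1, against 333 and 314 in Ctrl1 (0 of 4 called). In Neuron-PLA the neuron markers summed to 1553 and 1674 RPKM, against 1605 and 1618 in Neuron-ctrl, and 0 of 8 passed. Tubb3 made up most of these sums (846 and 974 RPKM, against 974 and 970). Gene by gene, 2 of the 8 had a log2 change below 0, and the median was 0.15. Radial glia markers summed to 168 and 208 RPKM in Neuron-PLA, against 321 and 331 in Neuron-ctrl (2 of 8 tested lower). Interneuron markers summed to 63.1 and 65.5 RPKM in Neuron-PLA, against 119 and 118 in Neuron-ctrl (5 of 6 lower). Upper-layer neuron markers went the other way, with 484 and 453 RPKM in Neuron-PLA, against 372 and 373 in Neuron-ctrl (1 of 4 higher, 0 of 4 below 0). Endothelial markers summed to 1.7 and 1.29, against 19.6 and 19.2, and microglia markers to 81.6 and 71.9, against 127 and 130. The endothelial sums were nearly all Cldn5, with 1.65 and 1.26 RPKM in Neuron-PLA, against 18 and 17.4 in Neuron-ctrl. In each library of this set 4 of the 5 endothelial markers were under 1 RPKM. No marker of neurons, microglia, cycling cells or interneurons was at 0 in these 8 libraries, while 2 and 3 of the 5 endothelial markers were at 0 in Neuron-PLA and none in Neuron-ctrl. The part of these markers in the members' changes was not tested.

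With Pex7 knocked down no member passed the test in the stem cells. Of 38 members tested 0 passed, and the background was 0 of 12482 genes (0%). Unadjusted, 184 genes had a p below 0.05, and Ndufs6 was the 1 member among them. On reads recovered from the RPKM limma-voom also called 0. The 2 NSC-Scramble libraries differed from each other. Cycling cell markers summed to 232 and 128 RPKM in them, oligodendrocyte lineage markers to 428 and 216, and choroid plexus markers to 28.8 and 189. Such a spread within a group makes a test of 2 libraries against 2 insensitive, so 0 passing does not show that nothing changed. The median change was 0.03 (SD 0.071), against 0.00 over all genes, and 11 of 38 members lay below 0, against 51.3% of all genes. Both NSC-Pex7sh libraries lay above both NSC-Scramble libraries in 10 of 38 members (10.6% of all genes) and below both in 0 (11.9%).

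Ndufs6, a zinc-binding subunit of the N module, had the smallest p and did not pass. It had 24.4 and 23.5 RPKM in NSC-Pex7sh, against 20.1 and 21.4 in NSC-Scramble (log2 change 0.20, SE 0.07, limma adjusted p = 1). Ndufa6, which binds the acyl carrier protein, had 20.8 and 20.4 RPKM in NSC-Pex7sh, against 18.4 and 18.3 in NSC-Scramble (log2 change 0.16, SE 0.07, limma adjusted p = 1). Ndufa1, an X-linked membrane subunit needed for assembly, had 34.7 and 31.7 RPKM in NSC-Pex7sh, against 28 and 29.9 in NSC-Scramble (log2 change 0.19, SE 0.08, limma adjusted p = 1). In all 3 genes both NSC-Pex7sh libraries were higher, without overlap. Changes of members ran from -0.12 to 0.20, and exon length did not order them (Spearman's rho -0.13 over members and -0.03 over all genes).

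Across the 6 stages most members were lowest at E12 and highest at E11 or E18. Each stage is 1 library, so the order has no replicate check. E12 was the lowest stage in 24 of 40 members, against 8.81% of all 12921 genes tested. E11 and E18 were the 2 highest stages in 20 of 40, against 4.82% of all genes. Summed over members the levels were 2157 RPKM at E11, 1571 at E12, 1683 at E13, 1816 at E14, 1691 at E16 and 2059 at E18. The median member had 1.33 times as much at E11 as at E12 (39 of 40 higher) and 1.35 times as much at E18 as at E12 (32 of 40 higher), where the median over all genes was 0.968 and 0.901.

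The slope on embryonic day, the test used for the stages, measures a steady trend and not such a curve. Of 40 members 1 was called lower and 0 higher, against 25.5% and 19.6% of all genes (45.1% in either direction), so fewer members than genes at large had a steady trend. Ndufs1, an iron-sulfur core subunit of the N module (chr1:63143596-63176833), had 11.5, 11.1, 9.43, 9.41, 8.33 and 7.66 RPKM from E11 to E18. Each stage was lower than the stage before it (slope -0.08 log2 per day, SE 0.02, limma adjusted p = 0.017). The call was lost without E18 (adjusted p = 0.0816) with the exon length trend removed (0.0512) and with length and GC removed (0.24).

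The highest slopes did not pass. Ndufs6b had 4.83, 3.6, 5.02, 6.3, 4.46 and 7.61 RPKM from E11 to E18 (slope 0.08, SE 0.04, limma adjusted p = 0.138). Ndufa5 had 38.4, 30.9, 32.9, 30.9, 32.5 and 55.2 RPKM (slope 0.07, SE 0.04, limma adjusted p = 0.192), and Ndufa1 had 64.9, 53.9, 59.6, 67.6, 55.9 and 92.2 RPKM (slope 0.07, SE 0.04, limma adjusted p = 0.176). E18 was the highest stage in all 3, followed by E14 for Ndufs6b and Ndufa1. At the other end Ndufa2 had 160, 84, 90.8, 96.9, 83.9 and 90.9 RPKM (slope -0.07, SE 0.05, limma adjusted p = 0.24), where E11 alone stood apart. Ndufb4c had 3.23, 2.59, 2.17, 2.35, 2.45 and 1.89 RPKM (slope -0.06, SE 0.03, limma adjusted p = 0.123).

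E11 was the highest stage in 23 of 40 members and E18 in 16. The core subunits Ndufs1, Ndufs3, Ndufs7, Ndufs8, Ndufv1 and Ndufv2 of the matrix arm peaked at E11: Ndufs3 had 47.3 RPKM at E11 and 33 at E18. Accessory subunits were found at both ends: Ndufs5 peaked at E18 (77.5 RPKM at E11, 56.9 at E12 and 94.3 at E18), while Ndufc2, Ndufa12 and Ndufb11 among others peaked at E11. Ndufa4 had 116 RPKM at E11, 77.6 at E12 and 134 at E18. Ndufv2 had 31.9 RPKM at E12 and 50.7 to 65.9 at the other stages, so a single library set its low. The paralogs Ndufa4 and Ndufa4l2 ran opposite at the start: Ndufa4l2 was lowest at E11 (1.76 RPKM) and highest at E12 (3.78), where Ndufa4 was lowest.

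**Figure D5:**
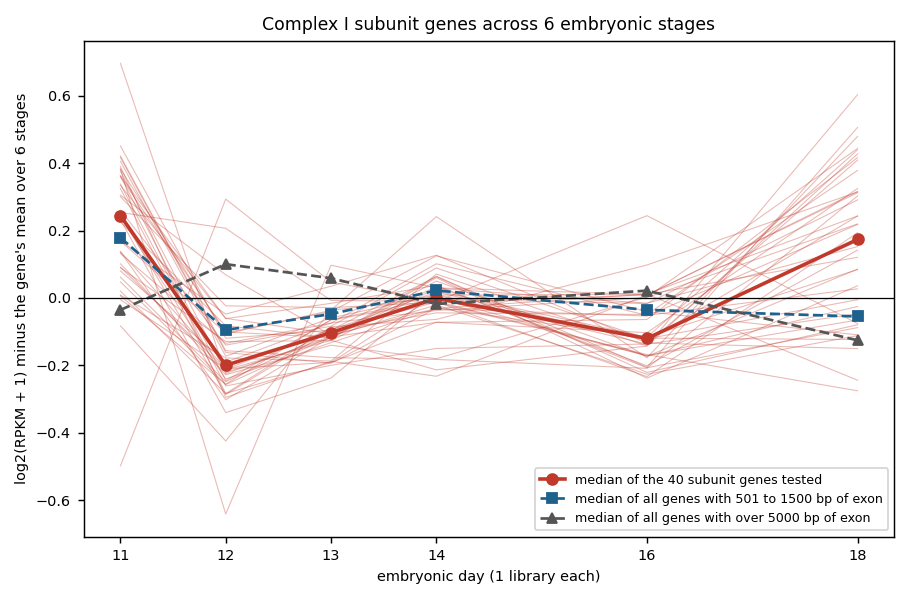
Log2(RPKM + 1) minus the gene's mean over the 6 stages for the 40 subunit genes tested (thin lines), their median (red points), and the medians of all genes with over 500 to 1500 bp (blue) and over 5000 bp (grey) of exon. The members' median is 0.24 at E11, -0.20 at E12 and 0.17 at E18, while short genes as a whole are at 0.18, -0.09 and -0.05.

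Short genes as a whole moved with the early end of this curve, but at E18 they did not rise above their own means. All genes with over 500 to 1500 bp of exon deviated from their own means by a median of 0.18 at E11, -0.09 at E12 and -0.05 at E18. Genes with over 5000 bp deviated by -0.04, 0.10 and -0.13, so at E18 short genes still lay above long ones. The members deviated by 0.24, -0.20 and 0.17. With the median of all genes in the same length class taken off in each library, a step added after the data were seen, E11 and E18 were the 2 highest stages in 19 of 40 members (6.65% of all genes) and E12 the lowest in 14 (9.53%). The E11 library also held most erythroid RNA: the 7 erythroid markers in the files summed to 6749 RPKM at E11, 1479 at E12, 727 to 932 at E13 to E16 and 253 at E18. Neuron markers summed to 958 RPKM at E11 and 2749 at E18, and cycling cell markers to 448 and 24.9. Their part in the curve was not tested. Without E11 12 members rose with embryonic day and 1 fell, against 17.1% and 23.5% of all genes.

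For the rest of the pathway the stage slopes are read against 25.5% of all genes that fell and 19.6% that rose. Of 38 nuclear genes for complexes II to V 4 went down and 0 up with embryonic day, and of 19 assembly factors 4 fell and 1 (Ecsit) rose. Of the 7 mitochondrially encoded subunits 2 rose, ND3 (slope 0.17, limma adjusted p = 0.00765) and ND4 (0.11, adjusted p = 0.0316). Among 13 regulators of biogenesis 7 fell, led by Gabpb1 (slope -0.13), Nrf1 (-0.14) and Tfam (-0.13).

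Levels of single members differed between tables, which were normalised separately, so such differences have no test. Ndufa1 had 0.399 to 4.94 RPKM in the 8 overexpression-set libraries, PLA1 and Neuron-PLA and their controls alike, against 28 to 92.2 in the stage and stem cell libraries. Ndufb6 had 0.254 to 2.38 RPKM in those 8 libraries, against 47.8 to 73.4. Both were singled out after their values were seen. They were the only 2 of 35 coding members, at a mean of at least 5 RPKM in the other 10 libraries, that stayed more than 5 times below the lowest of those libraries in all 8, and 2.83% of 8088 coding genes did the same. Some genes of the later complexes did so too, such as Cox7c and Atp5o (0.595 to 1.27 RPKM in the 8, against 53.2 to 139). Others, such as Atp5b, did not. The low level of Ndufa1 and Ndufb6 rests on few reads. Ndufa1 had 6 and 3 reads in PLA1 and 12 and 16 in Ctrl1 (log2 change -0.68, SE 0.22, limma adjusted p = 0.0574, not called).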

How the data were processed

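Total RNA was sequenced from 18 libraries. The submitters' processing notes name STAR 2.7.9a, HTSeq 0.6.0 and the mm10 build. The authors deposited 4 tables of RPKM, each normalised on its own. No header names the unit, which was read from the values: with GENCODE M21 merged exon lengths (held for 97.1% of genes), 97.5% to 97.8% of nonzero values per library came out as whole reads within 0.01.

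Each comparison was fitted within its table by limma 3.58.1 in R 4.3.3, with a trended prior variance on log2(RPKM + 1), over genes that averaged 1 RPKM or more. P-values were adjusted by Benjamini-Hochberg over all genes tested, with a threshold of 0.05. The difference between the overexpression sets used all 8 of their libraries. Fold changes on this scale understate low genes. The fits were tested on simulated data. Alternatives were a pseudocount of 0.1, no filter, median-ratio and upper-quartile scaling, removal of each library's trend on exon length and GC (lowess span 0.3), limma-voom on recovered reads, a replicate block, stage rank, and leaving out libraries. Copies were found with blastn 2.17.0 among GENCODE transcripts. Promoter sequence came from RefSeq (GRCm38.p6).

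The members and gene lists were chosen with earlier results of these data known. Named were the members past the threshold in each comparison (at most 8 of smallest adjusted p per direction where there were more, with the others given by value), or else the 3 of smallest p, and the 3 highest and lowest stage slopes. Further members named by value were chosen after their values were seen. Values of some single genes are not reported here, though the counts and medians include every member.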

Additional observations from a re-analysis of the deposited data

Results flagged for a closer look

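No complex I subunit gene of the nucleus was singled out. In 5 other genes of the pathway the overexpression effect differed between the sets by the test of the difference itself (neuron set minus first set, limma over all 8 libraries with Benjamini-Hochberg adjustment). The log2 difference was 0.84 for ND2 (adjusted p = 0.00104), 1.32 for ND4 (0.000274), 1.44 for ND5 (0.000247) and 0.56 for ND6 (0.0286). It was 1.40 for the assembly factor Ndufaf5 (adjusted p = 0.0167), which had 25.1 and 24 RPKM in Neuron-PLA, against 24.8 and 19.7 in Neuron-ctrl.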

How the results depend on the processing

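Among the genes recomputed, the named members past the threshold or of smallest p in each comparison, none turned its direction under any alternative run. Without E18, 8 members had a slope above 0 and 32 below, against 22 and 18 with all stages. Of the single-gene values recomputed 203 stayed on their side of the threshold, 65 lost a call and 2 gained one. In PLA1 the number of members called higher was 0 without the filter and with upper-quartile scaling, and 0 to 1 with a library left out. The number called lower was 1 without the filter, 7 with the length trend removed, 7 with length and GC removed, and 1 to 11 with a library left out. Its median was -0.299 with upper-quartile scaling, -0.072 with length removed (also with the replicate block) and -0.0678 with length and GC removed, and it ran from -0.241 to -0.1197 with a library left out. In Neuron-PLA the number lower was 0 without the filter, where 0% of all genes were. It was also 0 with length removed (0.304% of all genes) and with length and GC removed (0.322%). With the replicate block it was 0 too, with or without length (0.277% in each). By limma-voom 4 were lower, against 1.4% of all genes. The members' median was -0.2497 with length removed (also with the block), -0.2362 with length and GC removed, and -0.531 to -0.2527 with a library left out. In NSC-Pex7sh the median ran from 0.0091 to 0.0698 with a library left out. For the stage slope the number higher was 4 with length removed (23.8% of all genes) and with length and GC removed (22.4%). With a stage left out it was 0 to 12 (9.94% to 18.6% of all genes). The number lower was 0 with length removed (23.7%) and 0 to 1 with a stage left out (9.91% to 23.8%). With a stage left out the median ran from -0.0377 to 0.0531. For the difference between the sets the number lower was 1 with the replicate block (6.58% of all genes). With a library left out the median ran from -0.3014 to -0.0029. E12 was the lowest stage in 14 members with length-class medians subtracted. The cause was not tested for these shifts.

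Deviations of same-numbered libraries correlated weakly over all genes: 0.099 in the first set, 0.047 in the neuron set and 0.01 in the stem cells. Such a correlation cannot show how the libraries were prepared, and whether they were paired is not labelled. With the replicate block 13 members were lower in PLA1 (16.1% of all genes) and 1 higher (20.9%). In Neuron-PLA 0 passed, where 0.277% of all genes were lower and 0.206% higher. In NSC-Pex7sh 0 passed, where 0.00801% were lower. In the difference between the sets 1 member, Ndufa12, was lower, where 6.58% of all genes were. With 2 libraries per group and 1 per stage, depth limits the lowest members most, such as Ndufa1 with 3 to 16 reads in the first set.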
